A study of Mus musculus with 8 samples.

Results

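Htr7, Grasp and Slc4a8 had the largest falls among genes whose mean count reached 100, outside chemokine and neutrophil genes, in mouse dendritic cells that had engulfed ferroptotic tumor cells. They are 3 of the 55487 genes in the count table and 3 of the 15411 tested, those with enough counts. They were chosen by the size of their fall in this comparison (the log2 fold change), so their own values are described here without a test.

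The cells were BMDC, dendritic cells grown from the bone marrow of C57BL/6J mice (6 to 8 weeks old) with GM-CSF at 20 ng/ml for 10 days. Every library was wild type. In 4 libraries the BMDC were untreated, and in the other 4 (BMDC-fer) they had been co-cultured for 4 h with ferroptotic Jurkat cells and sorted for having taken them up. The Jurkat line, established from a human T-cell leukemia, had been killed with the GPX4 inhibitor ML162 (0.5 µM for 14 h). The study gives a sorting step for BMDC-fer and none for the untreated BMDC, so uptake, exposure and sorting cannot be told apart. It gives about 80% CD11c-positive cells for such cultures, which are thus a mixture. The CD11c gene Itgax was at 1111 ± 294 CPM in BMDC and 1033 ± 247 in BMDC-fer (SD, n = 4). CPM are counts scaled to library size, normalised by TMM. Total counts per library lay between 39326672 and 50532209, and 3 counts, taken as the floor, equal 0.0607 to 0.0785 CPM (counting error only). In both groups, replicates 1 and 2 stood apart from replicates 3 and 4, so values are also given within these pairs.

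The 3 genes have separate roles. Htr7 encodes the serotonin receptor 5-HT7, which couples to Gs and raises cyclic AMP, and which has been described on dendritic cells. Grasp (also called tamalin) encodes a scaffold with a PDZ domain that holds membrane receptors together with cytohesins, the exchange factors of ARF GTPases. Its close relative Cytip is a leukocyte protein that also binds cytohesins and is induced when dendritic cells mature. Slc4a8 encodes a sodium-driven chloride/bicarbonate exchanger of the SLC4 family, which extrudes acid equivalents and is best known from neurons. Maturation is the switch of a dendritic cell from sampling antigen to migrating and presenting it, marked by genes such as Ccr7, the receptor that guides cells to lymph nodes, and Fscn1, an actin-bundling protein of their long processes.

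In GENCODE M21 (GRCm38), Htr7 (ENSMUSG00000024798) lies on the minus strand at chr19:35958734-36057507, with 6 blocks of exons and 3399 exonic bases. Slc4a8 (ENSMUSG00000023032) is on the plus strand at chr15:100761747-100823968, with 27 blocks and 13021 bases. Grasp (ENSMUSG00000000531), also on the plus strand, lies at chr15:101224188-101232756, with 8 blocks and 2033 bases. The starts of Slc4a8 and Grasp are 462441 bases apart. Of the 50-base words in the longest transcript of Grasp, 0.504% also occurred in another gene (Map3k13 or Slc35b3). None did for the longest transcripts of Htr7 and Slc4a8, which do not cover all their exonic bases.

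The stretches just before the starts of the chromosome 15 genes are shown because both genes were lower in the same libraries and share a chromosome. They are the part of RefSeq's 300-base promoter windows (GRCm38.p6, plus strand) that precedes the GENCODE start. For Grasp this is chr15:101223957-101224187, and capitals mark a match to the TATA box, TATAAA, and a run in which the GC box GGGCGG overlaps a match to the NF-kB motif. For Slc4a8 it is chr15:100761497-100761746, and capitals mark an inverted CCAAT box (CCAAT on the other strand).
Grasp: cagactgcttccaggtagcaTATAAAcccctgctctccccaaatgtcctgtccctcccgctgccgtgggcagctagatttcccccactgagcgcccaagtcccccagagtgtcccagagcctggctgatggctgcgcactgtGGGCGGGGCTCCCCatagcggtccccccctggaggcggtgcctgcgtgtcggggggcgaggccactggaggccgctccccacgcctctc
Slc4a8: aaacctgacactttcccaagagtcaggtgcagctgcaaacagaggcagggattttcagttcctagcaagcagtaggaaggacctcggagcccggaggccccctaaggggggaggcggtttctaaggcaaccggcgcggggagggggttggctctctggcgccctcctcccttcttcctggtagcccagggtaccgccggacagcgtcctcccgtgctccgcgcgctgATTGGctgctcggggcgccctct
Both strands of the full windows were searched. The Grasp window held 2 matches to TATAAA, found in 13.6% of all 32851 windows, 1 to the GC box (35.7%) and 1 to the NF-kB motif (4.51%). The Slc4a8 window held 2 matches to CCAAT (37.4%) and none to the TATA box, the GC box or the NF-kB motif. The Htr7 window, chr19:36057311-36057610 on the minus strand, held 1 match to the CRE half-site TGACG (20.8%) and no match to the other motifs. None of the 3 windows held AP-1 (TGANTCA, 7.81%) or the PU.1 core GAGGAA (28.3%). The E-box CANNTG, present in 72.3% of windows, occurred once in Grasp, at 2 places in Slc4a8 and not in Htr7. GC content was 81% in the Htr7 window, 66.7% in Grasp and 65.7% in Slc4a8, beside a median of 52.7% over all windows. The ratio of observed to expected CpG was 0.936, 0.549 and 0.652 in the same order, against a median of 0.384. The windows thus had a high GC content in common, and no motif searched was present in all 3. The Htr7 window, however, lies wholly inside RefSeq's model of the gene, so no stretch before the start is shown. Its values describe sequence within that model and are not comparable with upstream stretches of Grasp and Slc4a8.

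The 3 genes were detected in every library, with groups that did not overlap. For 11.6% of tested genes all BMDC-fer libraries were below all BMDC libraries, and the share called lower was 5.91%, against 3.47% called higher. A call required a Benjamini-Hochberg adjusted p in edgeR's quasi-likelihood test no higher than 0.05 and a log2 fold change of at least 0.58 in either direction. All 3 genes were called lower, which follows from how they were chosen.

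Htr7 was counted 712, 407, 273 and 211 times in BMDC replicates 1 to 4, or 16.4, 8.57, 6.46 and 5.26 CPM. In BMDC-fer the counts were 83, 9, 7 and 4, or 1.68, 0.220, 0.168 and 0.105 CPM. Replicate 1 was thus the highest library of both groups, and the other 3 BMDC-fer libraries were close to the floor. The BMDC mean was 9.17 ± 5.01 CPM and the BMDC-fer mean 0.543 ± 0.759 CPM (SD, n = 4), a ratio of 16.9, and the log2 fold change was -4.04 ± 0.87 (SE). It was -3.66 within replicates 1 and 2 and -5.37 within replicates 3 and 4. Without BMDC-fer replicate 1 it was -5.77. The call was lost without BMDC-fer replicate 2, 3 or 4, although the remaining libraries still did not overlap.

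Grasp had 265, 199, 573 and 575 counts in the BMDC libraries, or 6.11, 4.19, 13.6 and 14.3 CPM. Its BMDC-fer counts were 66, 19, 13 and 8, or 1.34, 0.465, 0.311 and 0.209 CPM. In untreated BMDC the order of the replicate pairs was the opposite of that for Htr7, while in BMDC-fer replicate 1 was again the highest. Mean levels were 9.55 ± 5.15 and 0.5804 ± 0.514 CPM, a ratio of 16.5. The log2 fold change of -4.01 ± 0.66 (SE) was made up of -2.48 within replicates 1 and 2 and -5.70 within replicates 3 and 4. It was -4.83 without BMDC-fer replicate 1.

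Slc4a8 was counted 461, 796, 750 and 643 times in BMDC, or 10.6, 16.8, 17.7 and 16.0 CPM. In BMDC-fer it had 93, 36, 21 and 30 counts, or 1.88, 0.881, 0.503 and 0.785 CPM. It was the steadiest of the 3 genes in both groups. From 15.3 ± 3.19 CPM in BMDC it was lower by a ratio of 15.1 in BMDC-fer, at 1.01 ± 0.601 CPM. The log2 fold change was -3.90 ± 0.41 (SE), with -3.28 and -4.70 within the replicate pairs.

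**Figure D1:**
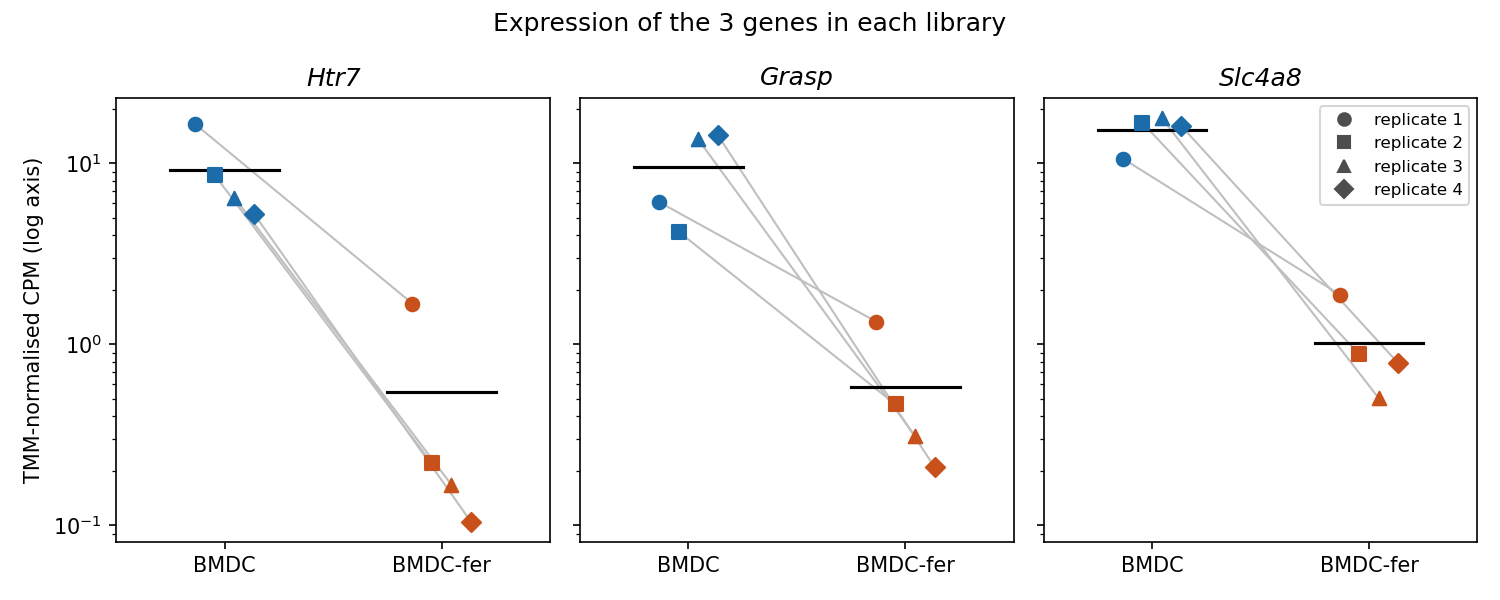
TMM-normalised CPM (log axis) of Htr7, Grasp and Slc4a8 in each library; marker shapes give the replicate number, grey lines join BMDC and BMDC-fer libraries of the same number, and black bars are group means. No BMDC-fer library reached 2 CPM and no BMDC library was below 4 CPM, and BMDC-fer replicate 1 was the highest of its group in every panel.

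The spread between replicates differed among the genes. In BMDC the coefficient of variation was 54.6% for Htr7, 53.9% for Grasp and 20.9% for Slc4a8. Untreated replicates 1 and 2 averaged 12.5 CPM of Htr7 against 5.86 CPM in replicates 3 and 4, a ratio of 2.13. For Grasp the averages were 5.15 and 13.9 CPM, 2.71 times more in replicates 3 and 4. Slc4a8 averaged 13.7 and 16.9 CPM, closer together than either. The ratio of Htr7 to Grasp CPM was accordingly 2.69 and 2.05 in BMDC replicates 1 and 2 and 0.476 and 0.367 in replicates 3 and 4. In BMDC-fer, by contrast, all 3 genes were higher in replicates 1 and 2, by ratios of 6.97 for Htr7, 3.46 for Grasp and 2.14 for Slc4a8. These ratios rest on replicate 1. Replicate 2 alone was at 0.220, 0.465 and 0.881 CPM of the 3 genes, beside means of 0.136, 0.260 and 0.644 CPM in replicates 3 and 4.

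What remained in BMDC-fer, as a percentage of the same-numbered BMDC library, was 10.2% for Htr7 in replicate 1 and 1.99% to 2.597% in the other 3. For Grasp it was 21.9%, 11.1%, 2.30% and 1.46% in replicates 1 to 4. For Slc4a8 it was 17.7%, 5.26%, 2.84% and 4.90%. Replicate 1 kept the largest share of each gene. Pairing by number was assumed here, and for replicates 3 and 4 the likeness of the libraries did not bear it out. In bulk RNA, fewer cells that express a gene and less of its RNA per cell cannot be told apart.

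Per kilobase of exon, Grasp was the most abundant of the 3 in BMDC, at 4.70 ± 2.53 CPM per kb, at percentile 54.0 of the tested genes. Htr7 followed at 2.70 ± 1.47 CPM per kb (percentile 42.1), and its libraries overlapped with those of Grasp. Slc4a8, with the longest exons, was lowest at 1.17 ± 0.245 CPM per kb (percentile 27.8), and its highest BMDC library, 1.36 CPM per kb, was below the lowest of Htr7, 1.55. The order of the means was the same in BMDC-fer, where the 3 genes stood at 0.285 ± 0.253, 0.160 ± 0.223 and 0.0778 ± 0.0462 CPM per kb with overlapping libraries.

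Among the 632 called falls whose groups did not overlap and whose mean count reached 100, the 3 genes held the first places by log2 fold change. Ngp, a granule protein of neutrophils, came next at -3.90. It was followed by the chemokine gene Ccl5 at -3.86 and by Gm45221 at -3.79. Slc4a8 and Ngp had the same rounded value, so no gap separates the 3 genes from the rest. Another 9 genes were called with larger falls than Slc4a8, each with a mean count under 100. The ones with the most counts were Flt3, the receptor of a dendritic cell growth factor, at -4.06 and Ceacam15 at -4.30.

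To see which mature dendritic cell genes the 3 genes followed, the log2(CPM + 0.05) values of each gene were centred on their mean over the 8 libraries. Likeness was the root mean square (RMS) difference between a pair of genes, in log2 units, so that a smaller value means more alike in both the size of the fall and the pattern among replicates. Because the 3 genes were chosen for a large fall, their neighbours by this measure are large falls as well, and the values are a description. The same libraries, depths and replicate pairs underlie every point.

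By RMS difference Slc4a8 was closer to mature dendritic cell genes than Grasp and Htr7 were. It was also closer to tested genes in general (median 2.09, against 2.22 for Grasp and 2.55 for Htr7). Of all tested genes the nearest to it was Fscn1 (RMS difference 0.353), which was at 133, 128, 112 and 118 CPM in BMDC and 19.4, 8.79, 7.19 and 6.62 in BMDC-fer. Fscn1 had BMDC-fer replicate 1 as the highest of its group, as Slc4a8 did. Next among the mature genes came Serpinb6b, a serine protease inhibitor (0.472), Ccr7 (0.482), the calcium channel subunit gene Cacnb3 (0.505) and the adenylyl cyclase gene Adcy6 (0.534). Outside the list, Slc4a8 was near to Mmp25, a membrane-anchored metalloproteinase (0.408), Flt3 (0.432) and the transcription factor gene Tcf7 (0.442).

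Of the mature genes, the nearest to Grasp by RMS difference was Ccl5, a chemokine that draws T cells (0.537). Ccl5 was at 23.0, 34.7, 110 and 107 CPM in BMDC and 7.83, 4.16, 2.92 and 3.95 in BMDC-fer. Both genes were lower in BMDC replicates 1 and 2 than in replicates 3 and 4. Ccr7 (0.616), Serpinb6b (0.661), Fscn1 (0.662) and Cacnb3 (0.673) were the next mature genes. Ccr7 stood at 98.8, 110, 155 and 167 CPM in BMDC and 26.5, 14.8, 11.0 and 9.90 in BMDC-fer. Off the list, Ildr1 (0.476), Adam11 (0.481) and Slc4a8 itself (0.5996) were near to Grasp.

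Htr7 stood further from the mature genes as a group, as it did from all tested genes, with Adam23 as the exception (0.482). Adam23, a catalytically inactive member of the ADAM family, was at 148, 75.0, 44.3 and 39.04 CPM in BMDC and 25.2, 5.14, 2.06 and 1.94 in BMDC-fer. Htr7 and Adam23 had the same order of libraries in both groups. Adam23 itself did not pass the threshold (log2 fold change -3.15, edgeR's adjusted p = 0.0523), although its groups did not overlap. It was called with the replicate block (-3.76, adjusted p = 0.0051) and by DESeq2 (adjusted p = 0.0082). Fscn1 (0.783), Slamf1 (0.839), Serpinb6b (0.948) and the transcription factor gene Stat4 (1.11) came next among the mature genes. The nearest of all tested genes was Il18r1, a subunit of the interleukin-18 receptor (0.460), at 32.3, 20.8, 10.5 and 12.1 CPM in BMDC and 3.46, 1.27, 0.623 and 0.393 in BMDC-fer. Ptk6 (0.599), Cdh17 (0.663) and Slc4a4 (0.666) were also near. Htr7 was 0.904 from Slc4a8 and 0.984 from Grasp, while Slc4a8 and Grasp were 0.5996 apart.

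**Figure D2:**
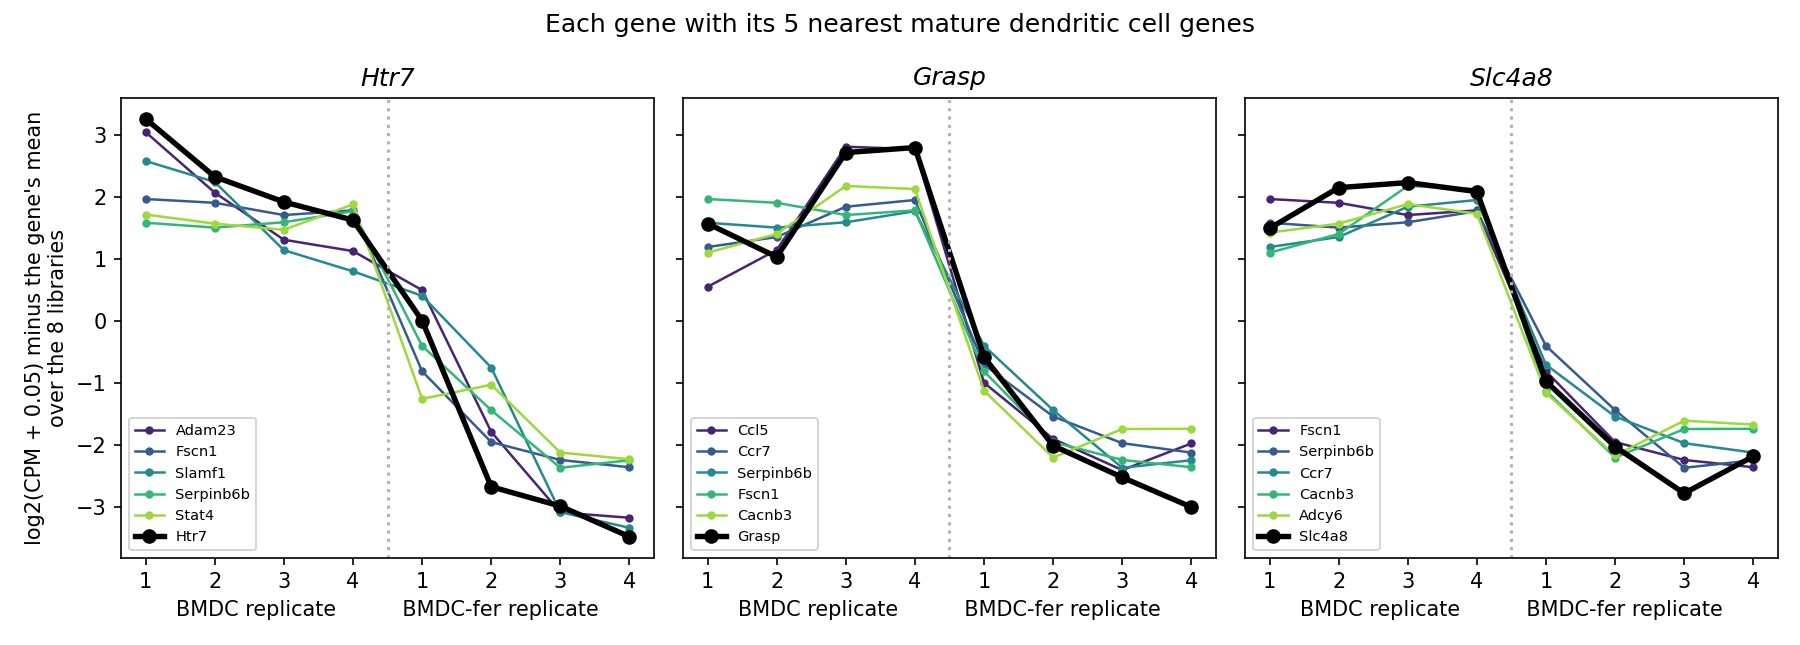
Log2(CPM + 0.05) in each library minus the gene's mean over the 8 libraries, for each of the 3 genes (black) and the 5 mature dendritic cell genes nearest to it (colors); lines only join the points of a gene. Htr7 and Adam23 were highest in BMDC replicate 1, and Grasp and Ccl5 in BMDC replicates 3 and 4.

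Mature dendritic cell genes made up 0.402% of the tested genes (62 of 15411). They were 10 of the 100 nearest genes for Htr7, 11 for Grasp and 11 for Slc4a8. These neighbours had to be large falls, and the list was written with earlier results of these data known. The share of all tested genes is therefore not a like background, and the counts are only a description. Of the 911 tested genes called lower, 25 were on the mature list. With each group's own mean taken away, so that the mean fall no longer contributes, mature genes were 3, 3 and 5 of the nearest 100. Differences between libraries in the extent of the fall, such as the larger share kept in BMDC-fer replicate 1, still contribute. The median RMS difference to a mature gene was 1.94 for Htr7, against 2.55 for all tested genes. For Grasp these medians were 1.77 and 2.22, and for Slc4a8 1.61 and 2.09. The size of the fall enters these medians as well. Within groups the nearest mature genes were Adam23 (0.277) and the chemokine gene Ccl17 (0.438) for Htr7. They were Ccr7 (0.427) and the NF-kB subunit gene Rel (0.442) for Grasp, and Nudt17 (0.258) and Ccr7 (0.260) for Slc4a8. Adam23 and Slamf1 for Htr7, Ccr7, Ccl5 and Serpinb6b for Grasp, and Ccr7, Serpinb6b and Fscn1 for Slc4a8 were among the nearest 5 mature genes by both measures. Ccl17 was not called between the groups (log2 fold change -0.79, edgeR's adjusted p = 0.47), but it was called lower with the replicate block (-1.17, adjusted p = 0.0344).

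Of the 65 mature dendritic cell genes listed, 62 were tested, and 25 were called lower and 1 higher in BMDC-fer. All tested genes had 9.38% called in either direction. The number called was 17 without BMDC-fer replicate 4 and 35 with the replicate block. For 30 of the 62, all BMDC-fer libraries were lower than all BMDC libraries, beside 11.6% of all tested genes. The median log2 fold change of the list was -0.94, and over all tested genes it was 0.00069. After Ccl5 the lowest called genes were Fscn1 (-3.54), Cacnb3 (-3.43), Stat4 (-3.31), Adcy6 (-3.29), Slco5a1 (-3.15), Ccr7 (-3.09) and Serpinb6b (-3.02), with adjusted p-values of edgeR's test between 0.0016 and 0.006. Ccl22, a chemokine for regulatory and memory T cells, fell by 2.12 on the log2 scale, and the costimulatory genes Cd86 and Cd80 fell by 1.47 and 1.08. Il21r, the receptor of interleukin-21, was higher by 0.75. Cd83 (-1.26), Cd40 (-1.06), Relb (-0.99), Il12b (-0.62) and Cd274 (0.48) were not called. With the replicate block Cd83 and Cd40 were called lower (adjusted p = 0.0472 and 0.0458 in edgeR), and DESeq2 called Relb lower (adjusted p = 0.0328). The 3 genes described had larger folds than every gene of the list, which follows from how they were chosen. Within replicates 1 and 2 Grasp fell less (-2.48) than Fscn1 (-3.20). Summed over the list, the level was 5601 to 7044 CPM in BMDC and 4055 to 5542 in BMDC-fer.

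Of 21 genes for serotonin receptors and serotonin handling listed besides Htr7, 7 were tested and 0 were called by edgeR, with 4 at an unadjusted p under 0.05. With 9.38% of all tested genes called, so few genes allow no reading of this count. DESeq2 and edgeR with the replicate block each called 2, Maoa and Slc6a4, both higher. Maoa, which degrades serotonin, was at 11.6 ± 2.92 CPM in BMDC and 19.7 ± 4.15 in BMDC-fer. Slc6a4, the serotonin transporter, was at 1.76 ± 0.471 and 3.57 ± 1.15 CPM. The other receptors tested were Htr2a, at 10.5 ± 7.79 CPM in BMDC and 4.201 ± 1.72 in BMDC-fer (log2 fold change -1.33, edgeR's adjusted p = 0.16), and Htr2b, under 1 CPM on average in both groups. The remaining Gs-coupled receptors, Htr4 and Htr6, had at most 1 and 0 counts in any library, and 12 of the 21 genes had 3 counts or fewer in every library. Htr7 was thus the only Gs-coupled serotonin receptor detected above the floor, and in BMDC-fer replicates 2 to 4 it was itself at 4 to 9 counts.

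Downstream of Gs and cyclic AMP, 26 of 33 listed genes were tested, and 4 were called lower and 0 higher by edgeR, while DESeq2 called 7 lower and 1 higher. Without BMDC replicate 3 or BMDC-fer replicate 2, 3 or 4 edgeR called 1. Among all tested genes edgeR called 5.91% lower and 3.47% higher. The list's median log2 fold change was -0.12. Adcy6, which makes cyclic AMP, was at 25.6, 28.3, 35.2 and 31.6 CPM in BMDC and 4.23, 2.08, 3.09 and 2.96 in BMDC-fer (log2 fold change -3.29, edgeR's adjusted p = 0.0016). It also belongs to the mature list. The phosphodiesterase gene Pde4b, whose product degrades cyclic AMP, was lower by 2.68, and its call was lost with the replicate block (adjusted p = 0.0971) and in 6 of the 8 fits without a library. The CREB coactivator genes Crtc3 (-0.70) and Crtc2 (-0.60) were called, and each lost the call in at least 5 of these 8 fits. Gnas, which encodes the Gs alpha subunit, was at 55.0 ± 12.8 and 44.7 ± 4.63 CPM (log2 fold change -0.30, edgeR's adjusted p = 0.28). The protein kinase A catalytic genes Prkaca (-0.01) and Prkacb (-0.07) and Creb1 (0.20) were not called.

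For Grasp, 16 of 19 listed partner genes were tested, and 4 were called lower and 0 higher by edgeR, while DESeq2 called 6 lower and 0 higher. Without BMDC-fer replicate 4 edgeR called 1. Their median log2 fold change was -0.33, and for 6 of the 16 all BMDC-fer libraries were the lower ones. Over all tested genes edgeR called 5.91% lower, and for 11.6% all BMDC-fer libraries were the lower ones. The relative of Grasp, Cytip, was at 365 ± 115 CPM in BMDC and 97.1 ± 9.84 in BMDC-fer (log2 fold change -1.91, edgeR's adjusted p = 0.0034), and it is on the mature list as well. Cyth3, or GRP1, the cytohesin for which Grasp is named, was at 32.5 ± 9.48 and 29.6 ± 5.23 CPM and was not called (-0.14, edgeR's adjusted p = 0.71). Cyth1 (-0.06) and Cyth2 (-0.08) were not called either. Arf6, a GTPase that cytohesins activate, was called at -0.65, and the Rac exchange factor gene Dock1 at -0.64. Dlgap3, a scaffold gene of synapses, was called at -2.55 with only 10 to 18 counts in BMDC libraries and 1 to 4 in BMDC-fer. Without 1 of the libraries the call was lost in 6 of the 8 fits for Dock1, 3 for Dlgap3, 2 for Arf6 and 0 for Cytip.

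For Slc4a8, 25 of 33 genes for the SLC4 family and acid-base transport were tested. Of these 3 were called lower and 1 higher, beside 5.91% and 3.47% of all tested genes, and the median log2 fold change was 0.06. Slc4a4, a sodium bicarbonate cotransporter of the same family, was at 3.18, 3.45, 1.87 and 1.90 CPM in BMDC and 0.445, 0.0979, 0.144 and 0.0524 in BMDC-fer, of which 1 library was under the floor. Its log2 fold change of -3.75 (edgeR's adjusted p = 0.0076) was close to that of Slc4a8. Car2, the cytosolic carbonic anhydrase, was at 51.01 ± 2.99 and 10.7 ± 2.79 CPM (-2.26, edgeR's adjusted p = 0.0018). Slc4a7, another sodium bicarbonate cotransporter, was at 87.9 ± 17.6 and 43.5 ± 6.37 CPM (-1.01, edgeR's adjusted p = 0.0091). Of the other SLC4 genes tested, Slc4a2 (0.10), Slc4a3 (0.63) and Slc4a11 (-0.83) were not called. The proton channel gene Hvcn1 was called higher, at 101 ± 20.3 and 192 ± 39.8 CPM (0.92, edgeR's adjusted p = 0.0211), and lost the call without BMDC-fer replicate 3 or 4.

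**Figure D3:**
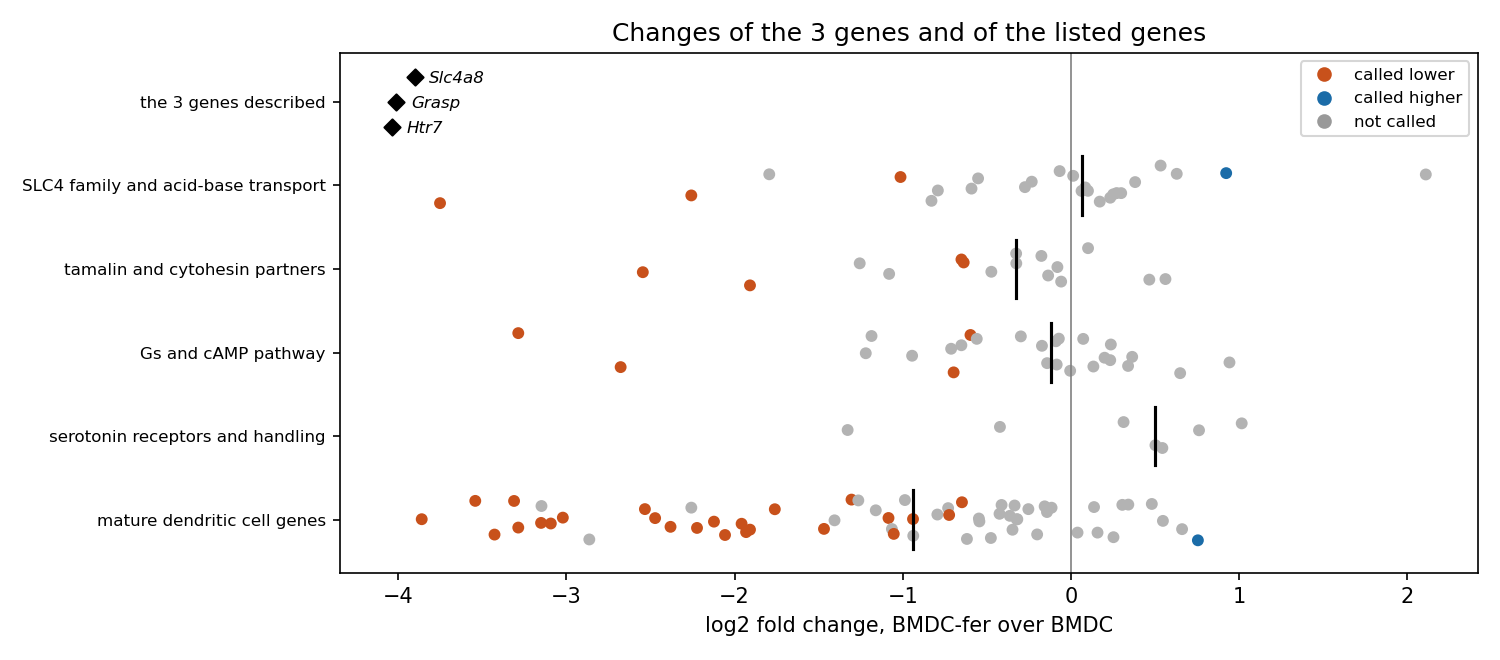
Log2 fold change between BMDC-fer and BMDC of the 3 genes (diamonds) and of the tested genes of 5 lists (dots, spread vertically for visibility); orange and blue mark genes called lower and higher, grey genes were not called, and black bars are list medians. The 3 genes, chosen for their fall, lie to the left of every listed gene. Called genes number 26 of 62 in the mature dendritic cell list and 0 to 4 in the others, beside 9.38% of all tested genes.

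The chromosomal surroundings of Slc4a8 and Grasp were examined next. Of 77 genes that start within 500000 bases of either, 49 had 3 counts or fewer in every library and 19 were tested. By edgeR 0 of the 19 were called lower and 3 higher, 6 had an unadjusted p under 0.05, and DESeq2 called 2 lower and 3 higher. Beside the 5.91% of all tested genes called lower, a count of 0 among 19 does not set these genes apart. The median was 0.18. Letmd1 (0.63), Csrnp2 (0.92) and Fignl2 (1.05) were the genes called higher, and the call of Csrnp2 was lost with the replicate block (adjusted p = 0.0610). Fignl2 and Csrnp2 lost their calls in 7 and 6 of the 8 fits without a library, and Letmd1 without BMDC replicate 4. Galnt6, the tested gene nearest to the start of Slc4a8, was at 111 ± 49.4 and 157 ± 16.0 CPM and was not called (0.49, edgeR's adjusted p = 0.29). Nr4a1, an early response transcription factor gene close to Grasp, was at 4.58 ± 3.15 and 1.76 ± 0.503 CPM, with a log2 fold change of -1.38 (edgeR's adjusted p = 0.11), and DESeq2 called it. The other gene DESeq2 called lower was A330009N23Rik, an antisense RNA gene that overlaps the start of Grasp by 999 bases and shares no exonic base with it. A330009N23Rik had 27, 9, 10 and 19 counts in BMDC and 3, 0, 1 and 0 in BMDC-fer, too few to pass the filter. Without a stated use of strand, its reads and those of Grasp introns cannot be told apart. Near Htr7, 3 of 16 genes were tested and Pcgf5, a Polycomb group gene, was called lower at -0.93.

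**Figure D4:**
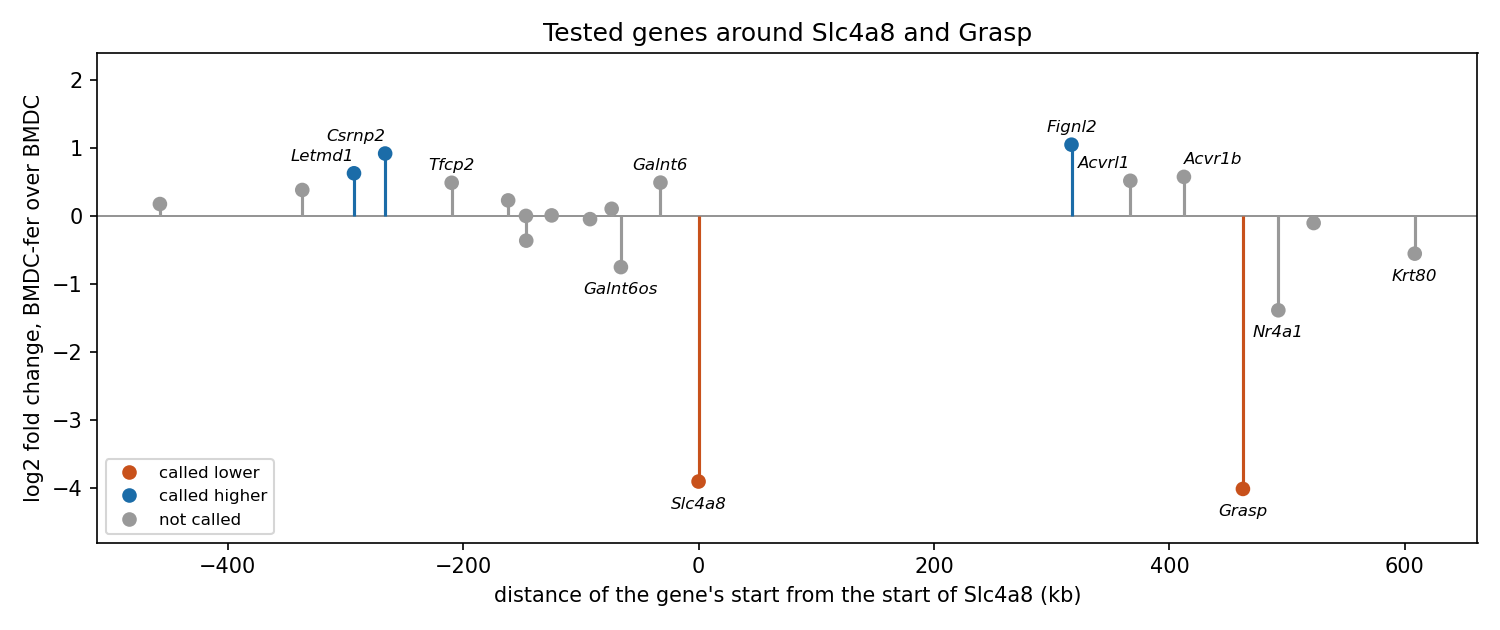
Log2 fold change of Slc4a8, Grasp and the 19 tested genes around them by the distance of each gene's start from that of Slc4a8 (kb); color gives the call, and genes with an absolute change of 0.4 or more are named. The genes between Slc4a8 and Grasp were called higher or not called.

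Marker genes of cell types in the cultures moved in part with the 3 genes. For comparison, edgeR called 5.91% of all tested genes lower and 3.47% higher. Of 16 dendritic cell identity genes 3 were called lower, Flt3 (-4.06), Dpp4 (-3.10) and Irf4 (-1.42), and none higher, and with the replicate block 11 were called lower, the MHC class II genes H2-Aa, H2-Ab1 and H2-Eb1 included. The summed level of these genes was 9793 to 22742 CPM in BMDC and 4592 to 11302 in BMDC-fer. Of these 16 genes, 15 had a log2 fold change below 0, and the median was -1.35, beside -0.94 for the mature list. For 4 of them all BMDC-fer libraries were lower than all BMDC libraries. Cd209a (-2.78) and Zbtb46 (-2.02), whose groups overlapped, were not called in the main fit. Batf3 (-0.26), Irf8 (-0.15) and Spi1 (0.35), which changed less, were not called either. Of 14 macrophage and monocyte genes only Adgre1 was called, lower at -0.81, and their sum was 2639 to 4097 CPM in BMDC and 3146 to 5264 in BMDC-fer. Adgre1 was not typical of this list, in which only 4 genes had a log2 fold change below 0 and the median was 0.43. Of 13 neutrophil genes 6 were called lower, with a median of -2.75, 10 with the replicate block and 1 without BMDC-fer replicate 4. Their sum, most of it Mmp8, was 617 to 1261 CPM in BMDC and 743 to 1466 in BMDC-fer. Of 10 mast cell and basophil genes 4 were tested and 0 called by edgeR, with 3 at an unadjusted p under 0.05, and DESeq2 called 5 lower. Their sums were 39.1 to 69.3 CPM in BMDC and 15.1 to 35.2 in BMDC-fer. Of 14 T, NK and B cell genes 3 were tested and Lck was called lower (-1.59), with 0 called without BMDC replicate 3 or 4 or BMDC-fer replicate 2, 3 or 4. These summed to 3.66 to 6.08 and 1.37 to 1.86 CPM, and Cd3e and Ms4a1 had at most 6 and 4 counts in any library, whereas Cd3g had 191 in BMDC replicate 1. The part of any of these cell types in the fall of Htr7, Grasp and Slc4a8 was not tested.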

How the data were processed

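Mouse poly(A)-enriched RNA of 4 untreated BMDC and 4 BMDC-fer libraries was analysed. The study describes them as independently collected. Per the submitters' processing notes and the methods, the authors mapped reads with HISAT2 to mm10 and counted them per gene with featureCounts, and the deposited mouse counts are not normalised. Tool versions, annotation release, use of strand and treatment of multi-mapping reads are not given in the sources used here. BMDC-fer libraries can hold engulfed human RNA. The human counts were not analysed here.

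Groups and replicate numbers came from the labels. Of 55487 identifiers, 55227 had a symbol in GENCODE M21. In R 4.3.3, edgeR 4.0.16 (TMM, filterByExpr with a count minimum of 10) was fitted on group over the whole table with quasi-likelihood tests and Benjamini-Hochberg adjustment. DESeq2 1.42.0, used by the authors, was an alternative, as were RLE normalization, no filter, the replicate block, each library left out, a pseudocount of 1 in place of 0.05 and, for likeness, Pearson's r or centring within groups. Fits within replicate pairs were added after seeing the data. SDs are over CPM. SEs were derived from edgeR's test, as the absolute log2 fold change divided by the square root of its F statistic. Across 15411 genes, same-numbered libraries deviated together from their groups' means (r = 0.445, 0.354, 0.313 and 0.342), and the shared numbers were taken to pair the samples, every r being over 0.1. Differently numbered libraries of pairs 1-2 or 3-4 were about as alike (0.186 to 0.379), and those of different pairs were not (-0.387 to -0.278). Among replicates 3 and 4 the differently numbered libraries were at 0.342 and 0.379, so r did not pair these by number. The main fit used group only. No replicates agreed within sampling noise (chi-square per gene 8.97 to 341).

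On simulated counts for this comparison (15153 genes, 200 changed by a log2 fold change of 2), edgeR recovered 90.5% with 6 false among 187 calls. The blocked fit found 87%, and 14 of its 188 calls were false. For DESeq2, run on 15411 genes, the share was 96.5% and 47 of 240 calls were false. The simulated counts held no replicate or pair effect, unlike the libraries, so they do not rank these fits for the real data.

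The 3 genes, the gene lists and the tests were chosen with earlier results of these data known. Genes named are the 3 genes, the nearest in the order of falls, the nearest 5 by likeness, the largest called fall and rise of each list with known partners, and tested neighbours. Others named were chosen after their values were seen.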

Additional observations from a re-analysis of the deposited data

Results flagged for a closer look

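BMDC-fer replicate 1 stood above the other 3 BMDC-fer libraries for 5 genes, by a gap to the next library that exceeds, as a share of the group's range, the 95% critical value of Dixon's test for 4 samples. The gap was 0.927 of the range for Htr7, 0.906 for Adam11, 0.862 for Adam23, 0.844 for Ptk6 and 0.831 for Fscn1, all on the CPM scale. On the log2 scale the same ratios were between 0.622 and 0.769 and none passed. In all, 52 groups of 4 libraries were examined, for which chance gives about 2.6 such gaps if the groups are independent. They were not, as Adam11, Adam23, Ptk6 and Fscn1 are among the genes named for their likeness to the 3 genes. The number of gaps therefore allows no reading against chance. Grasp and Slc4a8 were also highest in BMDC-fer replicate 1 without passing.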

How the results depend on the processing

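The direction of Htr7, Grasp and Slc4a8 was the same under each alternative run. Their log2 fold changes with one library left out ranged from -5.77 to -3.60 for Htr7, from -4.83 to -3.73 for Grasp and from -4.39 to -3.68 for Slc4a8, each lowest without BMDC-fer replicate 1. Within replicates 1 and 2 Grasp and Slc4a8 were at -2.48 and -3.28. Within replicates 3 and 4 Htr7, Grasp and Slc4a8 were at -5.37, -5.70 and -4.70. With the replicate block their values were -4.62, -4.05 and -4.01, and all 3 stayed called. The calls of Grasp and Slc4a8 were kept in all 8 fits without a library, and that of Htr7 in 5. These fits reuse the libraries by which the 3 genes were chosen, so they give no independent support.

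Counts of calls moved more. Over all tested genes 1445 were called, 2000 with the replicate block (1286 of them shared), 2408 by DESeq2 and 565 to 1440 with one library left out, fewest without BMDC-fer replicate 4. In the same fits, mature dendritic cell genes called numbered 17 to 30, serotonin genes 0 to 1, Gs and cyclic AMP genes 1 to 6, Grasp partners 1 to 4, acid-base genes 3 to 4, dendritic cell identity genes 1 to 3, macrophage genes 1 to 2, neutrophil genes 1 to 8, mast cell and basophil genes 0 to 3, T, NK and B cell genes 0 to 2 and genes near Slc4a8 and Grasp 0 to 2. DESeq2 called 2 serotonin, 8 cyclic AMP, 5 identity, 10 neutrophil, 5 mast cell, 2 lymphocyte and 5 neighbouring genes. The replicate block gave 2 serotonin, 11 identity, 10 neutrophil, 1 mast cell and 2 lymphocyte genes. Without a filter on low counts there were 2 cyclic AMP, 2 mast cell and 0 lymphocyte genes. The cause of these differences was not tested. Of the 5 mature genes nearest to Htr7, 2 were also nearest within groups, 3 by Pearson's r and 3 under a pseudocount of 1. For Grasp these numbers were 3, 3 and 3, and for Slc4a8 3, 4 and 5. Counts of 4 to 9 for Htr7 in BMDC-fer replicates 2 to 4 limit how exactly its fold is known.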
